A study of Mus musculus with 2 samples.

Results

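The genes described here handle iron and heme, and comprise *Fth1* and *Ftl1* (the heavy and light subunits of ferritin, which stores iron), *Hmox1* (heme oxygenase 1, which opens the heme ring and frees its iron), *Blvrb* (biliverdin reductase B, which acts on a product of heme breakdown), *Slc40a1* (ferroportin, the iron exporter of the cell surface), *Slc11a1* (a metal transporter of the phagosome membrane) and *Tfrc* (the transferrin receptor, which takes up iron). They were chosen by symbol, and all 7 were among the 31053 genes of the count matrices. Their levels were compared between the cell classes of mouse skin wounds and between states of macrophages. They were also compared between a library of mice given phosphate-buffered saline (PBS) and one of mice given diphtheria toxin (DTX). By the methods, the toxin was injected into the peritoneum.

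Single-cell RNA was sequenced from wounds of the back skin taken 5 days after injury, with 1 library per treatment. Both libraries were labelled as *Mrc1-DTR* mice on the C57BL/6 background, 7 to 9 weeks old, in which the promoter of *Mrc1*, the gene of the mannose receptor CD206, drives the receptor for diphtheria toxin, so that the toxin removes cells that use this promoter. Live cells were sorted as negative for the dead-cell dye 7AAD, and each library pooled 3 male mice. The methods describe the control mice as wild type and given toxin, whereas the labels give the *Mrc1-DTR* genotype and PBS; the libraries are called PBS and DTX here, after the labels. The paper also assigns the larger set of cells to the depleted *Mrc1-DTR* wounds and the smaller to control wounds, while by the labels the larger set is the PBS library. The labels were followed, and by them the library with more macrophage-like and fewer fibroblast-like and epithelial-like cells is the one given toxin. Only technical replicates are given in the methods, and it could not be told if they were joined in each library. With 1 library per treatment, no test between treatments was possible, a difference of treatment and a difference of capture cannot be told apart, and all intervals below are 95% intervals of counting error only.

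Macrophages of a wound engulf red blood cells and dead cells and so receive heme iron. Heme oxygenase 1 splits heme into iron, carbon monoxide and biliverdin, the iron is kept in ferritin or leaves through ferroportin, and dividing cells take up transferrin-bound iron through the transferrin receptor. The amounts of several of these proteins are set after transcription, when iron regulatory proteins bind a hairpin of the mRNA, the iron-responsive element. In the untranslated region before the coding sequence (5′UTR) the bound hairpin blocks translation, and in the one after it (3′UTR) it stabilises the mRNA. Counts of mRNA therefore do not show the amount of ferritin or ferroportin protein.

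Hairpins of this form are shown because they mark the members whose translation (5′UTR) or mRNA stability (3′UTR) iron regulatory proteins can set. A pattern of 27 bases, with a bulged C, 5 paired bases above it, at least 4 below it and a loop of 6 bases spelled CAGTGN, was searched for on the coding strand of the GENCODE M21 transcripts (build GRCm38). It was found in the 5′UTR of 6 of 20200 genes (0.0297%) and in the 3′UTR of 11 of 20857 genes (0.0527%). Among the members, it lay in the first exon and 5′UTR of *Fth1* (chr19:9982733-9982759, plus strand), *Ftl1* (chr7:45459780-45459806, minus strand) and *Slc40a1* (chr1:45925466-45925492, minus strand), and at 4 places in the 3′UTR of *Tfrc*, all in exon 19 on the plus strand (chr16:32631220-32631246, chr16:32631599-32631625, chr16:32631664-32631690 and chr16:32631711-32631737). The capitals mark the loop.
Fth1: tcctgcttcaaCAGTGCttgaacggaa
Ftl1: tcttgcttcaaCAGTGTttgaacggaa
Slc40a1: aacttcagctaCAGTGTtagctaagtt
Tfrc site 1: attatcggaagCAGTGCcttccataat
Tfrc site 2: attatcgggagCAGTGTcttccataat
Tfrc site 3: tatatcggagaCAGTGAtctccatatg
Tfrc site 4: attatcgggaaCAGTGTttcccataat
The letters were not found in the untranslated regions of *Hmox1*, *Blvrb* or *Slc11a1*. The match is one of letters, and binding was not measured.

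On the same build, *Fth1* (ENSMUSG00000024661) lies at chr19:9980598-9985098, *Ftl1* (ENSMUSG00000050708) at chr7:45457944-45459884, *Hmox1* (ENSMUSG00000005413) at chr8:75093621-75100589 and *Blvrb* (ENSMUSG00000040466) at chr7:27447978-27466144. *Slc40a1* (ENSMUSG00000025993) lies at chr1:45908068-45926523, *Slc11a1* (ENSMUSG00000026177) at chr1:74375195-74386062 and *Tfrc* (ENSMUSG00000022797) at chr16:32608920-32632794. None of the 7 is overlapped by another counted gene. *Ftl1* has a near-identical copy in the matrices, *Ftl1-ps1*, at 83.5 CPM (UMI counts scaled to a total of 1000000) in the PBS and 68.4 CPM in the DTX macrophage-like cells. Reads shared by both copies leave a part of the *Ftl1* count uncertain, and the size of that part was not measured.

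Of 12058 barcodes in the PBS and 11031 in the DTX library, 8326 and 7188 held at least 500 genes and at most 6% mitochondrial counts, and 7944 and 6613 remained after removal of likely doublets, with a median of 9579.5 and 7286 unique molecular identifiers (UMIs, 1 per captured RNA molecule) per cell. The libraries shared 37 barcode sequences, 20 of them among cells that met these limits. *Mrc1*, the gene whose promoter was used, was at 492 CPM in the PBS and 428 CPM in the DTX macrophage-like cells. With every cell thinned to 2000 UMIs, 53.4% of the macrophage-like cells of the PBS library and 42.9% of those of the DTX library held an *Mrc1* UMI, so that cells with *Mrc1* RNA were still present in the library labelled DTX. As a background, the thinned shares were 1.37% and 1.32% among NK or T-like cells, a class that does not use *Mrc1*. By flow cytometry, the paper counted fewer CD206-positive macrophages per wound in its depleted mice. That count rests on protein, and RNA shares among captured cells do not give it. Clusters, made without the iron and heme genes, were named by marker genes, and 9 classes held at least 50 cells in each library. In the PBS and DTX libraries these were macrophage-like (1702 and 4442 cells), fibroblast-like (3065 and 656), epithelial-like (2066 and 235), dendritic-like (360 and 360), neutrophil-like (129 and 458), NK or T-like (225 and 151), pericyte-like (61 and 112) and endothelial-like cells (73 and 54), and a cluster left unnamed (100 and 78), led by *Cst3* and MHC class II genes. All 9 macrophage markers were raised in the macrophage-like cluster, but 8 of them were also raised in the dendritic-like cluster and 5 in the unnamed one. The dendritic-like cluster raised 8 of its own 11 markers, so that the macrophage markers do not separate these classes.

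Classes with at least 50 cells in the PBS library were ranked by their level in that library. Of the 7 genes, 6 had their highest level in macrophage-like or neutrophil-like cells, and *Tfrc* was the exception. The share of all genes with their highest level in these classes was not counted. It is therefore not shown that this placing is particular to the members. *Hmox1*, *Ftl1* and *Blvrb* were highest in macrophage-like cells, and *Fth1*, *Slc40a1* and *Slc11a1* in neutrophil-like cells, although for *Slc11a1* the interval of the neutrophil-like cells overlapped those of pericyte-like and macrophage-like cells. The 33 mast-like PBS cells, too few for this ranking, had *Ftl1* at 22148 CPM, above the 18851 CPM of macrophage-like cells. Each level below is the CPM of 1 class in 1 library, from its summed UMIs, and is compared between classes and libraries but not between genes.

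**Figure D1:**
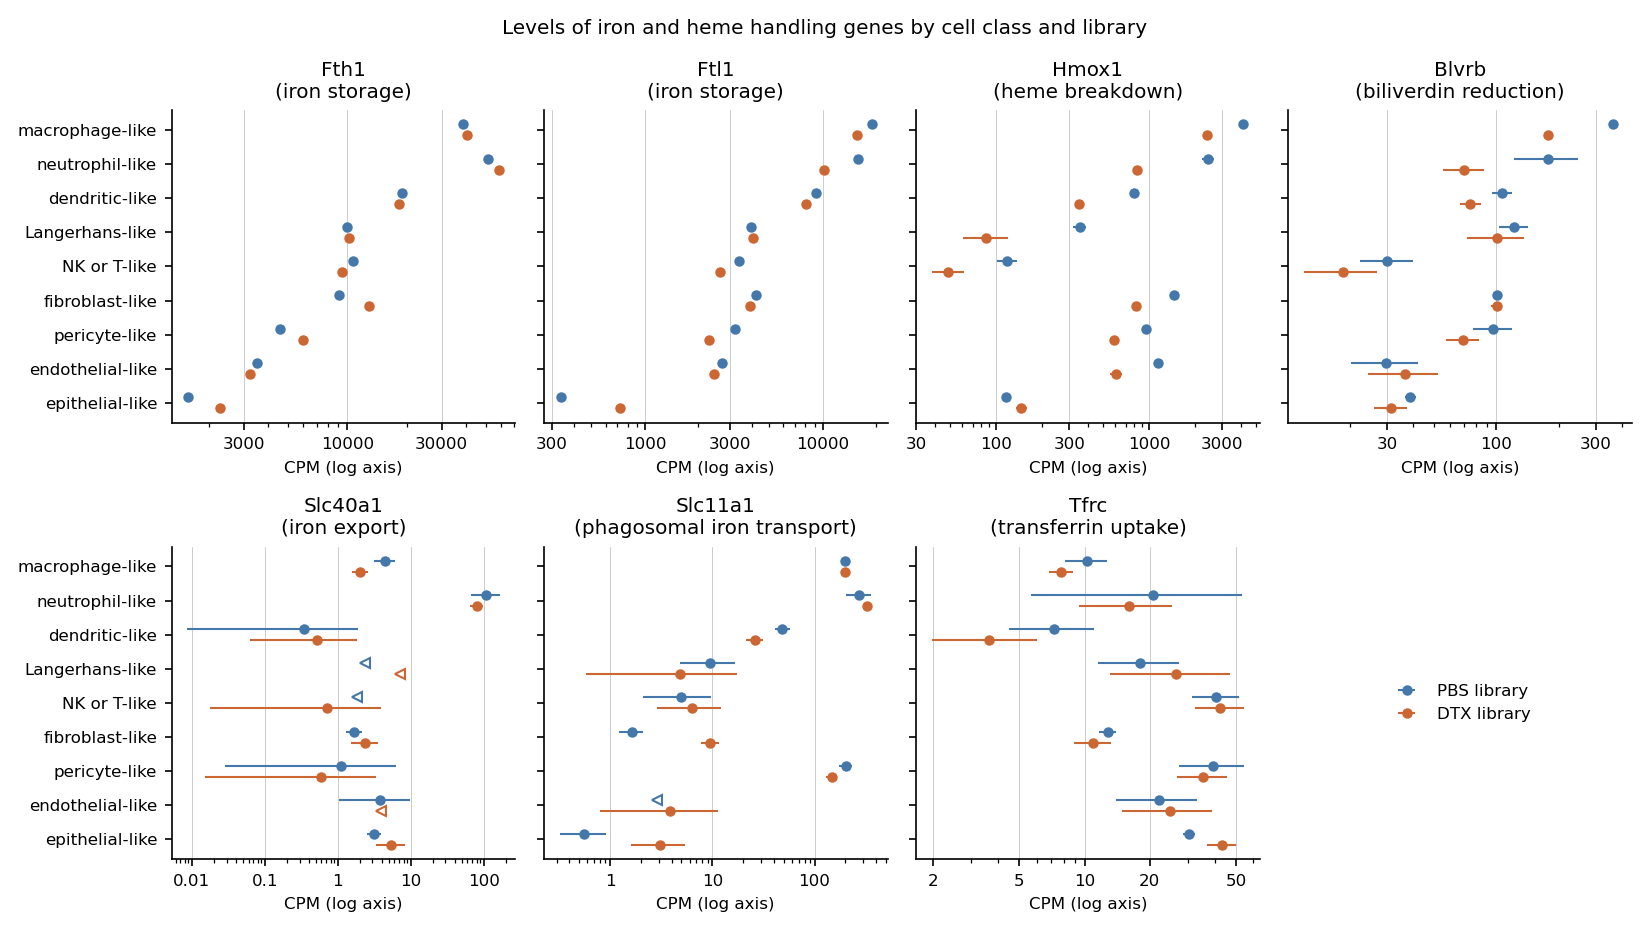
Level of each gene (CPM, log axis) in 9 cell classes, with 1 point per library (blue PBS, orange DTX) and bars for the 95% Poisson interval; an open triangle marks the level that 3 UMIs would give where none was counted. *Fth1* and *Ftl1* are high in macrophage-like, neutrophil-like and dendritic-like cells, but not in Langerhans-like cells. *Slc40a1* stands out in neutrophil-like cells, *Slc11a1* also in pericyte-like cells, and *Hmox1* is lower in the DTX library in every named class shown but the epithelial-like one.

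Iron storage genes were high in macrophage-like, neutrophil-like and dendritic-like cells and low in epithelial-like cells. *Fth1* was at 51228 CPM in the PBS and 58500 CPM in the DTX neutrophil-like cells, and at 38362 and 40064 CPM in the macrophage-like cells. In epithelial-like cells it was at 1571 and 2275 CPM, and in fibroblast-like cells at 9108 and 12915 CPM. Dendritic-like cells had 18914 and 18204 CPM. In both libraries neutrophil-like, macrophage-like and dendritic-like cells were thus the 3 highest of the 9 classes, in that order, and epithelial-like cells the lowest. *Ftl1* was at 18851 and 15558 CPM in macrophage-like, 15904 and 10195 CPM in neutrophil-like and 9142 and 8021 CPM in dendritic-like cells, against 337 and 726 CPM in epithelial-like cells. Together the ferritin genes made up 5.72% and 5.56% of all UMIs of the macrophage-like cells and 6.71% and 6.87% of those of the neutrophil-like cells, but 0.191% and 0.30% in epithelial-like cells.

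Between the libraries, *Fth1* and *Ftl1* went opposite ways in some classes and the same way in others. Both were lower in the DTX library in NK or T-like, dendritic-like and endothelial-like cells, and both were higher in epithelial-like cells. *Fth1* was higher in the DTX library in 6 of the 9 classes and lower in 3, while *Ftl1* was lower in 8 and higher in 1, and each of the intervals left out a ratio of 1. Being lower in at least 8 of the 9 classes was shared by 143 of the 2015 genes with at least 50 UMIs in all of them (7.1%). In fibroblast-like cells the log2 ratio of DTX to PBS, after adding 1 CPM to both, was 0.50 for *Fth1* (interval of the ratio without addition, 0.49 to 0.51) and -0.12 for *Ftl1*. In these cells most of the PBS library was cluster 1 (2162 of 3065 cells, led by *Ctsk* and *Serpina3n*), and just over 50% of the DTX library was cluster 3 (344 of 656 cells, led by *Mfap5* and *Sfrp2*). Within cluster 1 the *Fth1* ratio was 0.63 and within cluster 3 it was 0.61, whereas *Ftl1* was slightly higher in the DTX library within cluster 1 (0.04, 0.02 to 0.07) and lower within cluster 3 (-0.25, -0.27 to -0.22). In neutrophil-like cells the *Fth1* ratio was 0.19 (0.16 to 0.22) and that of *Ftl1* -0.64 (-0.70 to -0.58). In macrophage-like cells *Fth1* was nearly level at 0.06 (0.06 to 0.07), as was the median of the 10172 genes tested there (0.06), and *Ftl1* was lower at -0.28 (-0.29 to -0.27). Within the macrophage states described below that had at least 50 cells in each library, however, *Fth1* was lower in the DTX library in clusters 0 (-0.12, -0.12 to -0.11) and 3 (-0.16, -0.18 to -0.15) and slightly higher in cluster 4 (0.04, 0.02 to 0.05), and *Ftl1* was lower in all 3 (-0.25, -0.22 and -0.05).

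Epithelial-like cells went against the other classes for *Ftl1*, with a log2 ratio of 1.1 (1.04 to 1.17), from 9605 and 2818 UMIs. It was the only member of the 6 with at least 50 UMIs there that was at least 2-fold higher in the DTX library, where 2.67% of the 10288 genes tested in epithelial-like cells passed that mark. *Ftl1* was higher both in cluster 2 (276 and 708 CPM; led by *Krt16* and *Krt1*, 1177 PBS and 82 DTX cells) and in cluster 4 (410 and 755 CPM; led by *Cst6* and *Krt79*, 819 and 146 cells), which hold most of the PBS and of the DTX epithelial-like cells. The sum of the 9 macrophage marker genes in epithelial-like cells went from 65.0 CPM in the PBS to 396 CPM in the DTX library, and that of *Lyz2* alone from 33.6 to 255 CPM, against 8460 and 7687 CPM of *Lyz2* in macrophage-like cells. The part of macrophage RNA in the higher *Ftl1* level, and in the higher *Fth1* (0.53) and *Hmox1* levels of these cells, was not tested.

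The number of *Fth1* UMIs for each *Ftl1* UMI puts the subunits on one scale, for comparison between classes and libraries only. In macrophage-like cells it was 2.04 (2.02 to 2.05) in the PBS and 2.58 (2.57 to 2.58) in the DTX library. Within the macrophage states with at least 50 cells in each library the quotient differed less, with 2.01 and 2.20 in cluster 0, 1.88 and 1.96 in cluster 3 and 2.81 and 2.98 in cluster 4. It was 3.22 and 5.74 in neutrophil-like cells, 2.16 and 3.33 in fibroblast-like cells and 1.43 and 2.62 in pericyte-like cells, higher in the DTX library in each. Endothelial-like cells had 1.29 (1.22 to 1.35) and 1.32 (1.24 to 1.40), intervals that overlap. In epithelial-like cells the ratio was lower in the DTX library, 4.66 against 3.13, but this was so within cluster 2 (6.71 and 4.01) and not within cluster 4 (2.32 and 2.61). The few mast-like cells had 0.847 in 33 PBS and 1.21 in 19 DTX cells, and the unnamed cluster had 1.13 and 1.43.

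**Figure D2:**
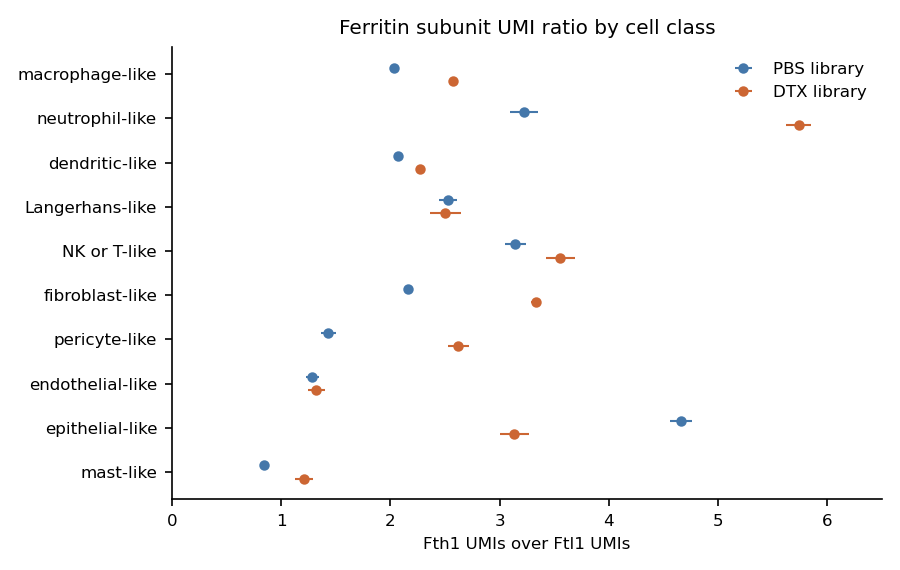
*Fth1* UMIs divided by *Ftl1* UMIs per cell class, with 1 point per library (blue PBS, orange DTX) and bars for the 95% interval. The DTX point lies to the right of the PBS point in macrophage-like (2.04 and 2.58), neutrophil-like (3.22 and 5.74) and fibroblast-like cells (2.16 and 3.33), and to the left in epithelial-like cells (4.66 and 3.13).

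*Hmox1*, the enzyme gene of heme breakdown, was lower in the DTX library in most classes. In the PBS library it was at 4131 CPM in macrophage-like cells, then at 2417 CPM in neutrophil-like, 1456 CPM in fibroblast-like and 1143 CPM in endothelial-like cells, each above the next beyond its counting interval. Pericyte-like (959 CPM), unnamed (859 CPM) and dendritic-like cells (797 CPM) followed with intervals that touch, and NK or T-like and epithelial-like cells were lowest at 118 and 115 CPM. In the DTX library the levels were 2383 CPM in macrophage-like, 831 CPM in neutrophil-like, 822 CPM in fibroblast-like, 604 CPM in endothelial-like, 589 CPM in pericyte-like and 348 CPM in dendritic-like cells, so that macrophage-like cells kept the top place.

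*Hmox1* was thus lower in the DTX library in 8 of 9 classes, and by at least 1.5-fold in the same 8, with every interval below a ratio of 1. Of the 2015 genes with at least 50 UMIs in all 9 classes, 8 (0.397%) were that much lower in at least 8 classes. The others, named after their values were seen, were *Col1a2*, *Dcn*, *Lgals7*, *Krt14*, *Krt16*, *Ly6d* and *Cst6*, which are genes of fibroblasts and epithelial cells. They were present at low levels in the other classes, as with *Dcn* at 186 and 25.2 CPM in macrophage-like cells, and the DTX library held fewer cells of both classes. Macrophage-like cells, highest in *Hmox1*, were more numerous in the DTX library (1702 PBS and 4442 DTX cells), with 34402 and 73027 *Hmox1* UMIs. Fibroblast-like cells were fewer in it (3065 and 656 cells), with 50983 and 7993 *Hmox1* UMIs. NK or T-like cells, expected to make little *Hmox1*, held 118 and 48.7 CPM of it. The part of free RNA in the differences of *Hmox1* was not tested.

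The log2 ratio of *Hmox1* was -0.79 (-0.81 to -0.78; 34402 and 73027 UMIs) in macrophage-like cells, or 1.73-fold lower. It was -1.54 (-1.70 to -1.38) in neutrophil-like, -1.26 (-1.69 to -0.87) in NK or T-like, -1.19 (-1.29 to -1.10) in dendritic-like and -1.18 (-1.35 to -1.02) in unnamed cells. In these 4 classes it was at least 2-fold lower, where 4.53%, 1.29%, 1.68% and 1.55% of the genes tested were. *Blvrb* was the only other member past that mark in any of them, in neutrophil-like cells. In dendritic-like cells the sum of the 9 macrophage markers was 4947 CPM in the PBS and 3063 CPM in the DTX library, with *Lyz2* at 3104 and 1713 CPM and *C1qa* at 376 and 195 CPM, and its part in their *Hmox1* level was not tested. In fibroblast-like cells the ratio was -0.82 (-0.86 to -0.79), with -0.72 in cluster 1 and -1.15 in cluster 3, and in endothelial-like and pericyte-like cells it was -0.92 and -0.70. Epithelial-like cells alone had a higher level in the DTX library, 146 against 115 CPM (0.33, 0.21 to 0.47), both in cluster 2 (0.44) and in cluster 4 (0.28). The PBS level was near that of NK or T-like cells and the DTX level above theirs. Neutrophil-like cells had the lowest depth and held RNA of other classes, with sums of the macrophage markers of 4529 and 3893 CPM (16568 and 11884 CPM in macrophage-like cells) and of 8 fibroblast markers of 2101 and 333 CPM, whose part in their *Hmox1* and *Blvrb* levels was not tested.

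**Figure D3:**
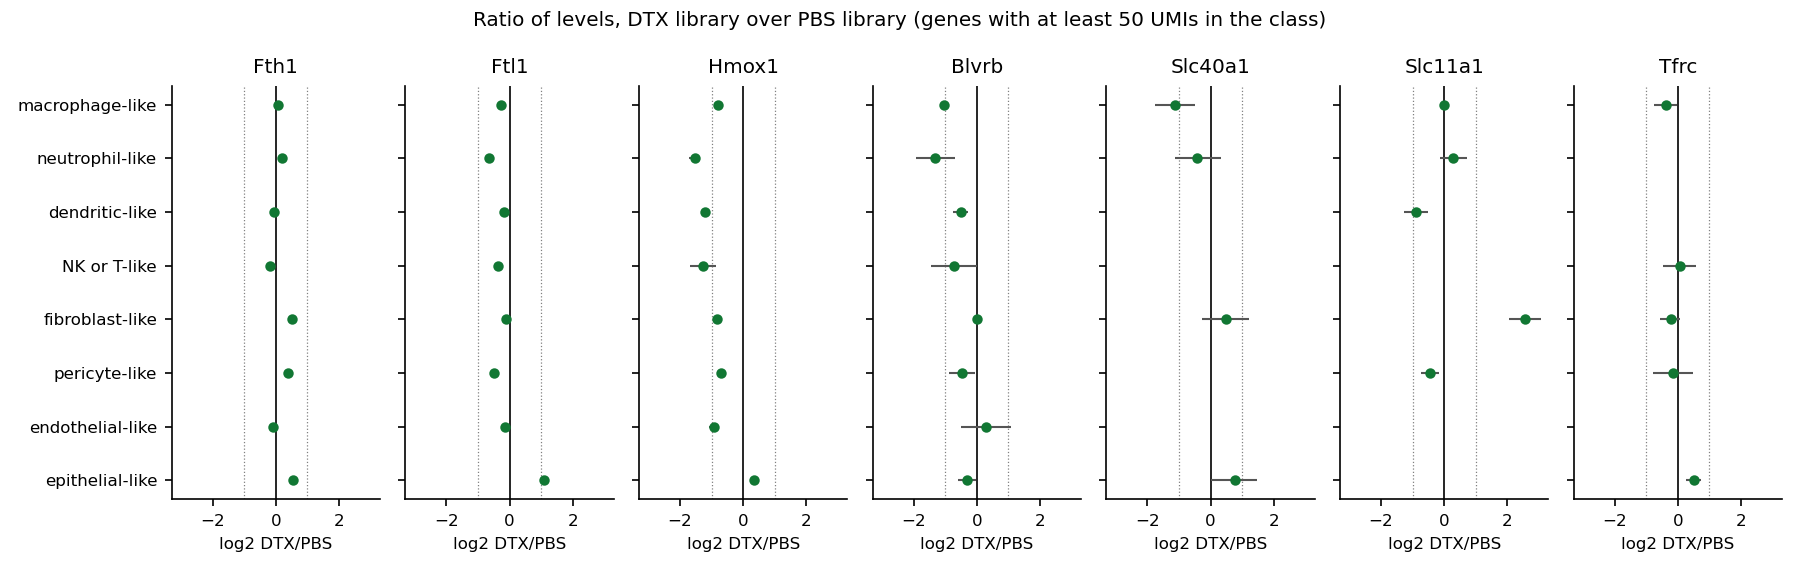
Log2 ratio of the level in the DTX over that in the PBS library, with nothing added to the levels, for each gene in the 8 named classes where it had at least 50 UMIs; bars are 95% conditional binomial intervals and dotted lines mark a 2-fold ratio. *Hmox1* lies left of 0 in 7 of the 8 classes and right of 0 in epithelial-like cells, and *Ftl1* in epithelial-like and *Slc11a1* in fibroblast-like cells lie past the dotted line on the right.

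Most macrophage-like cells held *Hmox1* RNA in both libraries. At 2000 UMIs per cell, 86.5% (84.6 to 88.2) of 1480 PBS and 80.4% (79.2 to 81.6) of 4302 DTX cells had at least 1 *Hmox1* UMI, with 222 and 140 shallower cells left out, and without thinning the shares were 93.4% and 92.2%, with a median of 4712.5 and 6730 UMIs per cell. The share in NK or T-like cells, with a median of 6534 and 8059 UMIs, was 11.4% and 6.62% thinned and 30.2% and 19.2% unthinned. The median thinned macrophage-like cell had 6 *Hmox1* UMIs in the PBS and 3 in the DTX library, with 10th to 90th percentiles of 0 to 22 and 0 to 13. In fibroblast-like cells 70.8% and 54.3% of thinned cells had an *Hmox1* UMI. Without thinning, the fibroblast-like cells with the RNA (2805 of 3065 PBS and 581 of 656 DTX cells) had 48.4 and 217 CPM of *Lyz2*. Those without it had 17.7 and 84.8 CPM, and macrophage-like cells 8460 and 7687 CPM. The part of macrophage RNA in the *Hmox1* levels of fibroblast-like cells was not tested.

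The difference in *Hmox1* depended on the mitochondrial share of the cells. The median share was 3.13% in the PBS and 4.03% in the DTX macrophage-like cells. Among macrophage-like cells with up to 2% mitochondrial UMIs, *Hmox1* was at 2735 CPM in 300 PBS cells and 2615 CPM in 212 DTX cells. Between 2 and 3% it was at 3546 and 2548 CPM, between 3 and 4% at 4867 and 2432 CPM, between 4 and 5% at 5025 and 2311 CPM, and between 5 and 6% at 5373 and 2247 CPM. The level in the PBS library was thus higher at higher mitochondrial shares, while that in the DTX library was slightly lower, and the libraries were close together only in the lowest range. The median depth of these cells went from 5010.5 to 3075 UMIs between the lowest and the highest range in the PBS and from 5829.5 to 6484 UMIs in the DTX library. With a limit of 3% mitochondrial UMIs in place of 6%, the log2 ratio in macrophage-like cells was -0.34.

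Levels that were close only in the lowest range were also present in state cluster 0, the *C1qa*-like macrophages described below, with 2928 and 2909 CPM in 156 PBS and 37 DTX cells of up to 2%, 4852 and 2279 CPM between 3 and 4%, and 3911 and 2201 CPM between 5 and 6%. Fibroblast-like cells differed from this, since *Hmox1* was lower at higher mitochondrial shares above 2 to 3% in both libraries, from 1642 and 1237 CPM there to 974 and 622 CPM between 5 and 6%. The DTX level was under the PBS level in all 5 ranges of the fibroblast-like cells, the lowest of which held 17 DTX cells. *Blvrb* in macrophage-like cells was lower in the DTX library in each of the 5 ranges, from 378 and 230 CPM in the lowest to 347 and 159 CPM in the highest. What the mitochondrial share stands for in these cells, and its part in the difference of *Hmox1*, was not tested.

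**Figure D4:**
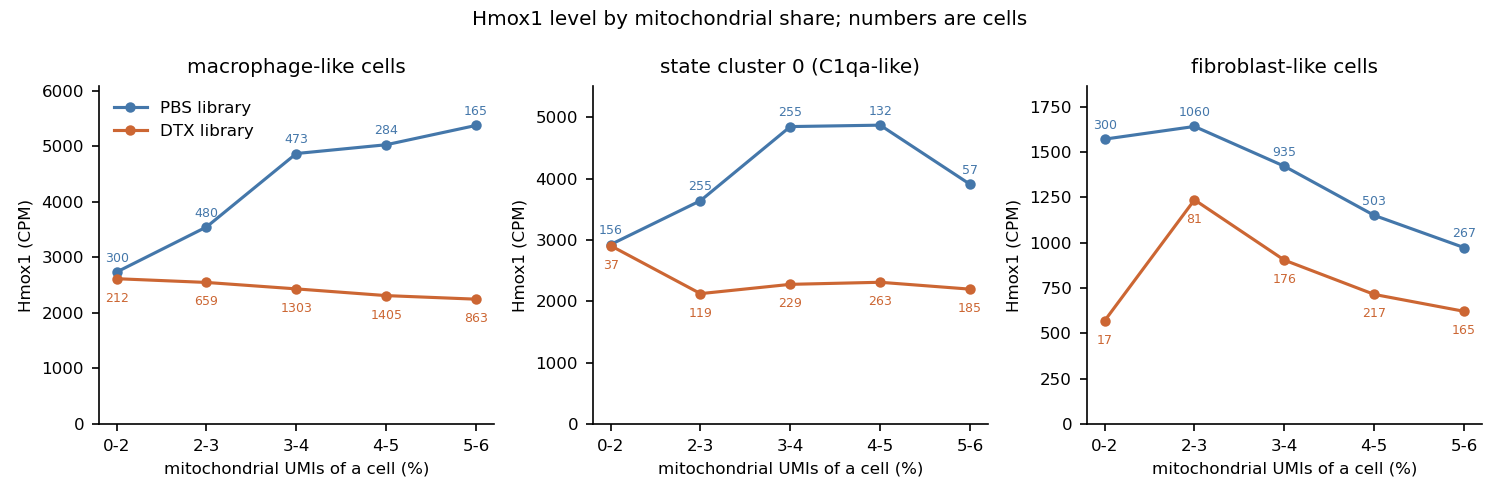
*Hmox1* level (CPM) of cells grouped by the share of mitochondrial UMIs (percent) in macrophage-like cells, state cluster 0 and fibroblast-like cells, with 1 line per library (blue PBS, orange DTX), the number of cells at each point and no error bars. In macrophage-like cells the PBS line goes from 2735 to 5373 CPM while the DTX line goes from 2615 to 2247 CPM.

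*Blvrb* was highest in macrophage-like cells in both libraries, at 362 CPM in the PBS and 176 CPM in the DTX library, from 3015 and 5398 UMIs. Its log2 ratio there was -1.04 (-1.10 to -0.97), and it was the only one of the 7 members at least 2-fold lower in macrophage-like cells, where 3.29% of the genes tested were. At least 1.5-fold lower were *Blvrb*, *Hmox1* and *Slc40a1*, 3 of 7 members, against 7.6% of all genes tested. Neutrophil-like cells had 176 and 70.0 CPM of *Blvrb* (-1.32, -1.93 to -0.70; 34 and 79 UMIs). Dendritic-like cells had 106 and 74.9 CPM, and fibroblast-like cells 101 and 100.2 CPM, with a ratio of -0.01 (-0.11 to 0.09). *Blvrb* was lower in the DTX library in 8 of 9 classes, but in 5 of them only did the interval leave out a ratio of 1. Thinned to 2000 UMIs, 44.1% of the PBS and 27.1% of the DTX macrophage-like cells had a *Blvrb* UMI (64.7% and 56.3% unthinned), against 4.57% and 3.97% of NK or T-like cells.

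The iron exporter gene *Slc40a1* was scarce outside neutrophil-like cells. These had 109 CPM in the PBS (67.3 to 166, 21 UMIs) and 80.6 CPM in the DTX library (64.9 to 99.0, 91 UMIs), with a log2 ratio of -0.43 (-1.13 to 0.33). Macrophage-like cells had 4.44 (37 UMIs) and 2.02 CPM (62 UMIs), and no UMI was counted in the unnamed cluster of either library or in the PBS NK or T-like cells, where 3 UMIs would have given 1.84 CPM. The level in neutrophil-like cells was thus over 20 times that in macrophage-like cells in both libraries. In 129 PBS and 458 DTX neutrophil-like cells, 19 and 64 held an *Slc40a1* UMI, with at most 2 and 4 UMIs in a cell, and these cells had 14546 and 30208 CPM of the neutrophil gene *S100a8*. Their median depth of 1229 and 1914 UMIs left 11 PBS and 200 DTX cells at the thinning depth, of which 18.2% and 11% had a UMI, while NK or T-like cells at that depth had none in either library, which allows shares of up to 1.37% and 1.99%.

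*Slc40a1* had a log2 ratio of -0.85 in macrophage-like cells (interval of the ratio without addition, -1.75 to -0.51), and with the 3% limit on mitochondrial UMIs it was 0.03. State cluster 3 held 22 of the 37 PBS UMIs and 5 of the 62 DTX UMIs. Epithelial-like cells had 3.16 and 5.41 CPM (0.62; interval without addition 0.02 to 1.47). Of their UMIs, 86 of 90 in the PBS and 20 of 21 in the DTX library came from cluster 4, the cells led by *Cst6* and *Krt79*, at 8.77 and 9.09 CPM. *Slc40a1* was therefore level within that cluster, which held 146 of 235 DTX and 819 of 2066 PBS epithelial-like cells.

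*Slc11a1*, the gene of a phagosomal metal transporter whose function was not measured, was at 269 CPM in the PBS and 329 CPM in the DTX neutrophil-like cells (0.29, -0.13 to 0.74). In macrophage-like cells it was at 199 and 200.5 CPM, with a log2 ratio of 0.01 (-0.07 to 0.09) over all of them, although it was lower in the DTX library within state clusters 0 (-0.31) and 4 (-0.35). Pericyte-like cells, the contractile cells of small vessels, had as much as macrophage-like cells in the PBS library, 202 CPM (174 to 234; 181 UMIs), and 147 CPM in the DTX library (129 to 166; 247 UMIs), a ratio of -0.46 (-0.74 to -0.18). In 41 of 61 PBS and 77 of 112 DTX pericyte-like cells at least 1 *Slc11a1* UMI was counted, and up to 20 and 25 in a cell. The cells with *Slc11a1* had 42.2 and 251 CPM of the macrophage gene *Lyz2*, against 8460 and 7687 CPM in macrophage-like cells, and 4794 and 6289 CPM of the pericyte gene *Rgs5*. Thinned to 2000 UMIs, 29.8% of 57 PBS and 19.4% of 108 DTX pericyte-like cells had a UMI, next to 29.5% and 30.2% of macrophage-like cells and 0.913% and 0.662% of NK or T-like cells.

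Dendritic-like cells had 48.5 and 26 CPM of *Slc11a1* (-0.87, -1.28 to -0.52), beside the lower macrophage marker sum given above, whose part was not tested here either. In fibroblast-like cells its level was low and higher in the DTX library, 1.63 and 9.57 CPM (2.01; interval without addition 2.06 to 3.06; 57 and 93 UMIs), the only one of the 7 members at least 2-fold higher in these cells, where 2.66% of the genes tested were. The 50 DTX fibroblast-like cells with an *Slc11a1* UMI had 1516 CPM of *Lyz2* and the rest 62.3 CPM, and the 48 such PBS cells had 993 CPM and the rest 28.2 CPM. Thinned shares were 0.201% and 1.54%, next to the 0.913% and 0.662% of NK or T-like cells. The sum of the macrophage markers in fibroblast-like cells was 104.5 and 359 CPM, and its part in the higher *Slc11a1* level was not tested.

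*Tfrc* is the receptor gene of iron uptake. In the PBS library it was at 40.5 CPM in NK or T-like (31.3 to 51.5), 39.1 CPM in pericyte-like (27.3 to 54.4), 30.4 CPM in epithelial-like (28.4 to 32.5) and 21.9 CPM in endothelial-like cells, then at 20.7 CPM in neutrophil-like cells from 4 UMIs (5.64 to 53.0), against 12.8 CPM in fibroblast-like, 10.2 CPM in macrophage-like and 7.22 CPM in dendritic-like cells. Most neighbours in this order had overlapping intervals, but NK or T-like and epithelial-like cells were both above fibroblast-like and macrophage-like cells. The DTX library gave 42.3 CPM in NK or T-like, 43.0 CPM in epithelial-like and 7.80 CPM in macrophage-like cells. *Tfrc* was higher in the DTX epithelial-like cells (0.49, 0.25 to 0.74; 865 and 167 UMIs), with 0.48 in cluster 2 and 0.49 in cluster 4. In the PBS library the 70 epithelial-like cells of cluster 12, led by genes of dividing cells such as *Top2a*, had 45.8 CPM from 62 UMIs.

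In macrophage-like cells the *Tfrc* ratio was -0.35 (-0.75 to -0.01; 85 and 239 UMIs). State cluster 6, with 44 DTX and no PBS cells, held 109 of the 239 DTX UMIs of *Tfrc* at 162 CPM. Its median depth was 1.96 times that of all DTX macrophage-like cells. The lack of PBS cells depended on the clustering. At a resolution of 1.0 a cluster also led by *Ctsk* and *Acp5* held 19 PBS and 188 DTX cells. With only the iron and heme genes left out, such a cluster held 0 and 53. Without that cluster, an alternative chosen after seeing the data, the level in the DTX macrophage-like cells was 4.34 CPM and the log2 ratio -1.07.

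Macrophage-like cells were split into 7 state clusters, made without the iron and heme genes, the lists of macrophage genes of the study and the state markers. Cluster 0 was *C1qa*-like (855 PBS and 833 DTX cells), cluster 1 *Cd9*-like (15 and 1202) and cluster 2 *Vcan*-like (36 and 1118), and the rest stayed unnamed. Cluster 3 (590 and 556 cells) was led by *Hspa1a*, *Cbr2* and *Folr2*, cluster 4 (119 and 663) by *Il1r2*, *Pgf* and MHC class II genes, cluster 5 (87 and 26) by *Mmp12*, *Lpl* and *Gpnmb*, and cluster 6 (0 and 44) by *Ctsk*, *Acp5* and *Mmp9*. The name of cluster 0 rests on its leading genes, 3 of which are *C1qa* state markers. It raised 3 of the 7 such markers, while cluster 3 raised 6 of them, so that the name does not set cluster 0 apart from cluster 3. Clusters 1 and 2 were thus mostly of the DTX library and clusters 0, 3 and 4 were the ones with at least 50 cells in each, so that a difference over all macrophage-like cells also carries the different make-up of the libraries.

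*Hmox1* was lower in the DTX library in clusters 0, 3 and 4, as were 37.9%, 37.3% and 41.3% of the genes tested there. In *C1qa*-like cells it was at 4069 and 2278 CPM (-0.84, -0.87 to -0.80), in cluster 3 at 5789 and 2316 CPM (-1.32, -1.37 to -1.28) and in cluster 4 at 1348 and 1107 CPM (-0.28, -0.38 to -0.19). Among members with at least 50 UMIs, *Hmox1* and *Tfrc* were at least 2-fold lower in cluster 3, where 1.6% of the genes tested were, and none was in cluster 0 (1.63% of genes) or cluster 4 (1.15%). Over the cells of clusters 0, 3 and 4 alone, a restriction chosen after seeing the data, *Hmox1* was at 4193 and 1806 CPM, a log2 ratio of -1.21. These clusters were still mixed differently between the libraries. Cluster 4, the lowest of them in *Hmox1*, held 119 PBS and 663 DTX cells, so that the value also carries this make-up. The *Cd9*-like and *Vcan*-like cells of the DTX library had 3367 and 2551 CPM, more than the *C1qa*-like cells of that library. These states thus raised the overall DTX level, while cluster 4, also more abundant in that library, lowered it at 1107 CPM. The sum of 10 stress and dissociation genes was 4744 and 6841 CPM in cluster 3 and 2483 and 2334 CPM in cluster 0, and its part in the *Hmox1* levels was not tested.

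The other members told the states apart in their own ways. *Blvrb* was lower in the DTX library in cluster 0 (351 and 245 CPM; -0.51, -0.62 to -0.41) and cluster 3 (365 and 231 CPM; -0.66, -0.82 to -0.50), and in cluster 4, where it was lowest, the interval included a ratio of 1 (127 and 113 CPM; -0.17, -0.47 to 0.14). In DTX cells it was at 190 CPM in *Cd9*-like and 139 CPM in *Vcan*-like cells. *Fth1* reached 52701 CPM in the *Cd9*-like DTX cells, where the ferritin genes made up 7.26% of all UMIs, against 36217 CPM in *C1qa*-like DTX cells and 11847 CPM in cluster 6. *Slc11a1* was highest in *Vcan*-like DTX cells at 250.5 CPM (240 to 261) and lowest in cluster 6 at 64.0 CPM (46.3 to 86.3). In cluster 0 it was lower in the DTX library (218 and 175 CPM; -0.31, -0.44 to -0.19), in cluster 4 likewise (219 and 171 CPM; -0.35), and in cluster 3 level (137 and 138 CPM).

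Cluster 6, whose leading genes *Ctsk*, *Acp5* and *Mmp9* are ones that osteoclasts use, stood apart in iron genes that had no part in defining it. It had the highest *Tfrc* level of any macrophage state (162 CPM, 133 to 196), the lowest *Fth1* and *Slc11a1* levels, and an *Fth1* to *Ftl1* UMI ratio of 1.02 against 2.20 in cluster 0, 2.64 in cluster 1 and 2.87 in cluster 2 of the same library. The sum of 10 cell cycle genes was 137 CPM in it and 18.4 CPM in cluster 0. In cluster 3 *Tfrc* was at 26.2 CPM (48 UMIs) in the PBS and 9.65 CPM (25 UMIs) in the DTX library (-1.35, -2.20 to -0.72). The PBS level was near that of cluster 5 (22 CPM, 12.5 to 35.7; 16 UMIs) and above that of cluster 0, which had 3.86 and 5.61 CPM.

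**Figure D5:**
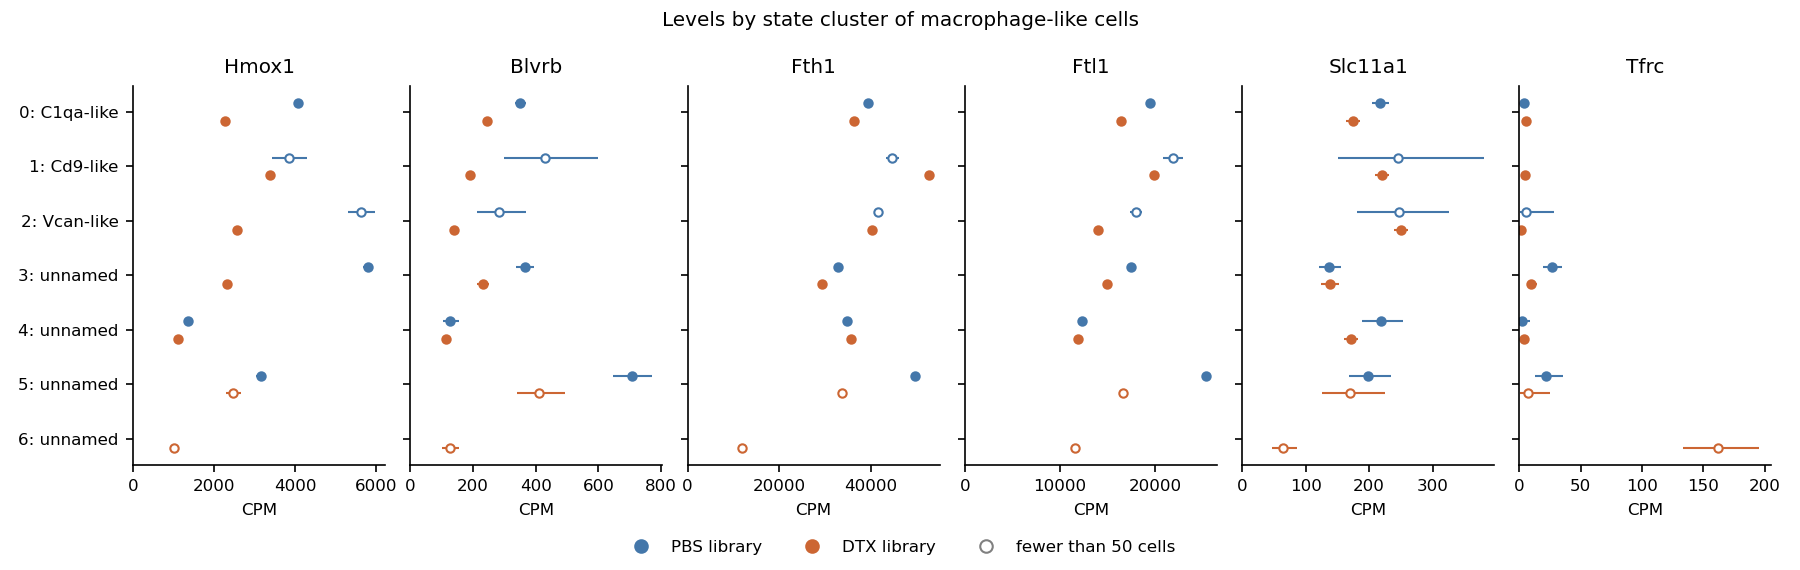
Level (CPM, linear axis) of 6 of the genes in the 7 state clusters of macrophage-like cells, with 1 point per library (blue PBS, orange DTX), bars for the 95% Poisson interval and open points where a library had fewer than 50 cells. *Hmox1* in clusters 0 and 3 is at 4069 and 5789 CPM in the PBS and 2278 and 2316 CPM in the DTX library, and *Tfrc* stands at 162 CPM in cluster 6.

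Among other genes of the pathway, taken from lists of 46 genes, more were lower than higher in the DTX macrophage-like cells, mostly by less than 2-fold. Of the 39 with at least 50 UMIs, 24 were lower and 15 higher in the DTX library, where 42.7% of all genes tested were lower, with a median log2 ratio of -0.13 against 0.06 for all 10172 genes, and 2 were at least 2-fold lower and 2 at least 2-fold higher, where 3.29% and 1.6% of all genes were. The 2 lower ones were *Spic*, a transcription factor of red pulp macrophages (49.6 and 18.1 CPM, -1.41), and *Cp*, the ferroxidase ceruloplasmin (3.72 and 0.718 CPM, from 31 and 22 UMIs). The 2 higher ones were *Hp*, the haemoglobin-binding protein haptoglobin (62.7 and 235 CPM, 1.89), and *Lcn2*, a protein that binds bacterial iron carriers (2.04 and 11 CPM, 1.98). *Hp*, *Lcn2*, *Spic* and *Slc11a2* are also in lists of macrophage genes that the study chose on these samples, so that their direction is no independent evidence, and *Hp* leads the *Vcan*-like cluster.

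By function, the lists gave 4 of 8 lower among heme synthesis genes (median -0.01) and 4 of 8 among other genes of heme uptake, transport and breakdown (0.05). For iron uptake and transport 8 of 11 were lower (-0.34), for storage and chaperones 3 of 4 (-0.05), and for sensing and regulation 5 of 8 (-0.24). The 5 with the most UMIs were the iron chaperones *Pcbp1* (360 and 351 CPM) and *Pcbp2* (344 and 331 CPM), the receptor for heme-hemopexin *Lrp1* (238 and 321 CPM, 0.43), the transferrin gene *Trf* (310 and 283 CPM, -0.13) and *Bach1* (333 and 223 CPM, -0.58), which represses *Hmox1* when heme is low. *Bach1* was thus lower in the library where *Hmox1* was lower, and its part in the *Hmox1* levels was not tested.

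The transcription factor Nrf2 activates *Hmox1*, and 6 of its other targets were measured in macrophage-like cells beside it. Of these, 5 were lower in the DTX library and 1 higher, with a median log2 ratio of -0.35 and none past 2-fold, where 42.7% of all genes tested were lower and their median was 0.06. *Gclc* and *Gclm*, of glutathione synthesis, were at 168 and 93.6 CPM and at 236 and 168 CPM, *Srxn1* at 424 and 339 CPM, *Txnrd1* at 556 and 474 CPM and *Nqo1* at 3.0 and 2.09 CPM, while the cystine transporter *Slc7a11* was at 385 and 669 CPM. *Slc7a11* is in the study's list of genes of its *Vcan* macrophages, chosen on these samples, so that its direction is no independent evidence. Haemoglobin RNA, a sign of red blood cells, came to 292 UMIs in the PBS macrophage-like cells, 263 of them in 1 cell, and to 10 UMIs in the DTX cells. The 19 PBS cells with haemoglobin UMIs had 4788 CPM of *Hmox1* and the rest 4122 CPM. In the DTX library 8 of 4442 macrophage-like cells held haemoglobin UMIs. Leaving these few out could hardly change the *Hmox1* level, which was 2381 CPM in the rest. The part of red blood cells in the *Hmox1* levels was not tested.

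Across 19 pairs of class and library that share libraries and differ in depth, *Fth1* and *Ftl1* followed one another, with a Pearson correlation of log2(CPM + 10) of 0.91, and *Hmox1* and *Blvrb* with 0.80, while *Tfrc* ran against *Ftl1* (-0.67), *Fth1* (-0.56) and *Hmox1* (-0.56). Among 10231 genes, the ones most like *Hmox1* were *Tbc1d24* (0.91), *Mafg* (0.88) and *Ctsb* (0.87), and those most like *Blvrb* were *Ctsb* (0.88), *Atp6v1h* (0.86) and *Atp6ap1* (0.86). *Gla* (0.93), *Trps1* (0.93) and *Rnf149* (0.92) were most like *Fth1*, and *Pgd* (0.95), *Ftl1-ps1* (0.94) and *Cyba* (0.92) most like *Ftl1*. For *Slc11a1* these were *Dgkg* (0.90), *Nptn* (0.86) and *Il10rb* (0.85), and for *Tfrc* *Iws1* (0.91), *Tubb4b* (0.86) and *Peli1* (0.84). *Slc40a1* was most like *AC110211.1*, *F630028O10Rik* and *Fbxl5* (0.97 each), a likeness that rests on its level in neutrophil-like cells.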

How the data were processed

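Libraries were made with the Chromium 3′ v3 kit, which counts each RNA molecule once near its 3′ end. The authors ran Cell Ranger against mm10 (version 6.1.1 in the submitters' processing notes), and what they deposited are UMI counts of each gene in each cell, not normalized. Cells were kept if they had 500 or more genes and no more than 6% mitochondrial UMIs. The limit of 2000 genes given in the methods was used as an alternative only. Doublets were scored by Scrublet in scanpy 1.11.5 with an expected rate of 8%. Its threshold removed 382 PBS barcodes (4.59%), and as it called 0 barcodes in the DTX library, the 575 with the highest scores (8.00%) were removed there.

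Clustering was done in Seurat 5.3.0 (R 4.3.3) on 2000 variable genes and 30 principal components, at a resolution of 0.2 for classes and 0.5 for macrophage states, without the iron and heme genes. A marker was raised at 2 times the median cluster with 50 CPM added and a UMI in 10% of cells. The rule that turned raised markers into names was set, and changed, once the clusters were known. UMIs were summed per class and library and divided by their total (CPM). Ratios were taken after adding 1 CPM, with exact Poisson and conditional binomial intervals, and shares of cells after thinning with exact Clopper-Pearson intervals; the limit for a count of 0 is 3 counts. Genes with at least 50 UMIs in a class were tested against a 2-fold mark. Python 3.11.15, numpy 2.4.6, scipy 1.17.1, pandas 2.3.3, anndata 0.12.19 and matplotlib 3.10.9 were used, with the seed 1, and the steps were tested on simulated data. The genes, lists and comparisons were chosen with earlier results of these data known. Named were the 7 members, pathway genes past 2-fold in macrophage-like cells, the 5 others with the most UMIs, the companion lists and the 3 genes most like each member. Columns of no known sample numbered 0.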

Additional observations from a re-analysis of the deposited data

Results flagged for a closer look

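Several members differed in opposite directions between cell classes, with counting intervals on different sides of a ratio of 1. How many of all genes meet this rule was not counted, so that it is not shown to be particular to the members. The intervals hold counting error only and are narrow for genes with many UMIs. Whether the ratio differed between classes was not tested, since each treatment had 1 library. On the log2 scale, *Hmox1* had a ratio of 0.33 in epithelial-like and -1.54 in neutrophil-like cells, and *Fth1* one of -0.19 in NK or T-like cells and 0.53 in epithelial-like cells. *Ftl1* had 1.1 in epithelial-like and -0.64 in neutrophil-like cells. *Slc40a1* had 0.62 in epithelial-like and -0.85 in macrophage-like cells, both from under 150 UMIs. *Slc11a1* had 2.01 in fibroblast-like and -0.87 in dendritic-like cells, and *Tfrc* 0.49 in epithelial-like and -0.35 in macrophage-like cells. In 5 of these 6 genes the class with the higher DTX level was the epithelial-like one, of which the DTX library held 235 cells and where macrophage marker UMIs were more frequent in that library.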

How the results depend on the processing

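The log2 ratio of *Hmox1* in macrophage-like cells (-0.79) was -0.59 with at most 2000 genes per cell, -0.34 with a limit of 3% mitochondrial UMIs, -0.73 at a clustering resolution of 0.5, -0.89 as a mean over cells, -0.86 centred on the median of all genes and -0.82 scaled without mitochondrial and ribosomal protein genes. It was -1.21 over the state clusters with at least 50 cells in each library (added after seeing the data), which the libraries still held in different shares. *Hmox1* was at least 1.5-fold lower in 8 of 9 classes, in 2 of 2 with at most 2000 genes and in 2 of 4 with the 3% limit, which left fewer classes with 50 cells. The shares of cells with an *Hmox1* UMI (86.5% PBS, 80.4% DTX) were 79.4% and 68.1% at 1000 UMIs and 93.4% and 92.2% unthinned. Pathway genes at least 2-fold lower numbered 1 in place of 2 when 200 UMIs were required. The log2 ratio of the *Fth1* to *Ftl1* quotient (0.34) was 0.38 with at most 2000 genes and 0.35 without doublet removal. Of 480 values of single genes and classes, 366 lay within the counting interval of the main ratio and 114 outside it. That interval is of the ratio without addition, so that at low levels a value can lie outside it without having moved. The sign was kept by 463. Those that did not keep it include *Fth1* in dendritic-like cells and, with the 3% limit, *Slc40a1* in fibroblast-like (-0.63) and macrophage-like cells (0.03). Causes of these differences between settings were not tested. No paired analysis was possible because each treatment had 1 library. Depth limits *Slc40a1* and *Tfrc* most, which rested on under 100 UMIs in most classes.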

Other observations

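Mast-like cells, too few for the comparisons, had 323 *Hmox1* UMIs in 33 PBS cells and 61 in 19 DTX cells. Langerhans-like cells had *Hmox1* at 352 CPM in 123 PBS cells and 86.2 CPM in 37 DTX cells. Of the barcodes removed as doublets, 13 of the PBS and 426 of the DTX library lay nearest to macrophage-like cells.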
